A study of Mus musculus with 23 samples.

Results

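Matrix metalloproteinases (Mmp), ADAMTS proteinases (Adamts) and the tissue inhibitors of metalloproteinases (Timp) were examined in mouse bone with and without type 1 diabetes (T1D). Members were chosen by symbol alone: Mmp, Adamts or Timp followed directly by a number. Of 17644 genes with a symbol, 41 matched: 19 Mmp, 18 Adamts and 4 Timp genes. At least 10 counts in at least 5 libraries were found for 36 of them (15 Mmp, 17 Adamts and 4 Timp), among 14364 such genes in all, and these 36 were tested. The remaining members, Mmp3, Mmp10, Mmp21, Mmp24 and Adamts16, did not reach this level. Their highest count in any library was 15, for Mmp3.

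Bulk RNA-Seq was done on marrow-depleted femur and tibia from a single hind limb, with 1 library per mouse. All mice were female, 11 weeks old and labelled C57BL6/N. The groups were WT Control (n = 5) and KO Control (n = 6), which received saline, and WT T1D (n = 6) and KO T1D (n = 6), which received streptozotocin (STZ, a toxin of pancreatic β cells) at 100 mg/kg with a stated disease duration of 3 weeks. In the methods this is the dose per injection, injections were repeated, and diabetic mice had to exceed a fasting glucose threshold. KO mice carried a global, germline Sarm1 knockout (Sarm1 encodes an NADase that drives axon degeneration), so loss of the gene was not limited to bone or nerve. Per the methods, littermates of heterozygous breeders and purchased background-matched WT mice were used, and the source of each mouse is not given in the labels.

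Total counts ranged from 16938101 to 20135592 per library. Sarm1 was checked first and was low throughout. Mean CPM (counts scaled to library size) was 1.17 ± 0.403 for WT Control (SD, n = 5) and 0.799 ± 0.503 for KO Control (SD, n = 6). With T1D it was 0.687 ± 0.293 for WT (SD, n = 6) and 1.19 ± 0.259 for mice labelled KO (SD, n = 6). At this low level the ranges overlapped, so Sarm1 counts did not separate the genotypes. The mean was lower in KO Control than in WT Control, but higher in KO T1D than in WT T1D. The labels were kept as given. The KO groups are called mice labelled KO. WT T1D mice A3905 and A3906 stood apart from the other 21 libraries. Their summed osteoblast markers were 6083 and 4628 CPM, against 53089 to 118480 CPM in every other mouse, and member results that rest on them are given with and without them. Mouse IDs fell into an A17 series, with 1 WT Control and 3 WT T1D mice, and an A36 to A39 series with all others, including every mouse labelled KO. Without A3905 and A3906, WT T1D is left with the 3 A17 mice and A3909. In those fits the T1D and ID series differences within WT largely coincide and were not separated.

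MMPs are zinc-dependent endopeptidases that are made as inactive proenzymes and together cleave most components of the extracellular matrix, while TIMPs bind their active site and block it. ADAMTS proteinases are secreted relatives with thrombospondin repeats that cut proteoglycans, trim procollagens or act on fibrillin-rich microfibrils and von Willebrand factor. In bone, collagenases and gelatinases take part in growth plate turnover and osteoclastic resorption, MMP14 at the osteoblast and osteocyte surface activates proMMP2, and MMP8, MMP9 and MMP25 are stored in or displayed on neutrophils.

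Upstream sequence is shown for some of the members that lay at opposite ends of the range in mice A3905 and A3906. For Mmp13 and Mmp8 these were the 2 highest of 23 mice, and for Mmp14 and Adamts2 the 2 lowest. RefSeq promoter windows (GRCm38.p6) matched 28 of 41 members. Each line gives the 250 bases before the annotated start, 5′ to 3′ on the plus strand. Capitals mark matches on either strand to TGANTCA (the AP-1 site), TGTGGT (the RUNX site), TATAAA (the TATA box) and GGGCGG (the GC box). Windows are chr9:7272264-7272513 for Mmp13, chr9:7558179-7558428 for Mmp8, chr14:54431348-54431597 for Mmp14 and chr11:50601835-50602084 for Adamts2.
Mmp13: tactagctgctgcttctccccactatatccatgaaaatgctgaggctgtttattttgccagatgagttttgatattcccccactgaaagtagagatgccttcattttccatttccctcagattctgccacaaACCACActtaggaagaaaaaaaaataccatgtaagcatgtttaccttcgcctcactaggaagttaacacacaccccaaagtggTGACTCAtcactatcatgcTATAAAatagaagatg
Mmp8: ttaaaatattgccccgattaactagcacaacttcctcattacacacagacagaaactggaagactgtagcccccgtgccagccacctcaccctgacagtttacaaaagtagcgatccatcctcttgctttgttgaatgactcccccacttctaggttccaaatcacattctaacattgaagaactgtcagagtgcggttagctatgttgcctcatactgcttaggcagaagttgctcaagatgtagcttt
Mmp14: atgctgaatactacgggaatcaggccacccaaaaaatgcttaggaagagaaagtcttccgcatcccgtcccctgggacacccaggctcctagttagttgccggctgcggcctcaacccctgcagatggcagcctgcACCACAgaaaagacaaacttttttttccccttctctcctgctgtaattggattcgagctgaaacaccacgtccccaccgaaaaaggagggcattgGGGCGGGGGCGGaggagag
Adamts2: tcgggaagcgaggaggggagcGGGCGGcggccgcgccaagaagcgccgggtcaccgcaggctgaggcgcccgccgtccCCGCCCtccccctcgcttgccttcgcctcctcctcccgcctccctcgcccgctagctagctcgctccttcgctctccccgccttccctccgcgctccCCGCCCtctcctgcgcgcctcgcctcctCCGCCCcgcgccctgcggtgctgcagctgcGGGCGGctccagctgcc

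The Mmp13 window held an AP-1 match 35 bases before the start, a TATA match 16 bases before it and a RUNX match 118 bases before it, and none of these matches overlapped. Mmp8 held no match to these letters. Mmp14 held a RUNX match 114 bases before the start and 2 adjoining GC boxes, while Adamts2 held 5 GC boxes. Across all 32851 windows, TGANTCA was found in 6.75%, TGTGGT in 14%, TATAAA in 12.4% and GGGCGG in 32.7%. Among the 28 members, TGANTCA was found in 4 (Mmp3, Mmp10, Mmp12 and Mmp13) and GGGCGG in 16. The 16 were Mmp11, Mmp14, Mmp15, Mmp24, Mmp25, Mmp28, Adamts1, Adamts2, Adamts3, Adamts9, Adamts14, Adamts18, Adamts20, Timp1, Timp2 and Timp3. TGTGGT was found in 4 (Mmp13, Mmp14, Mmp23 and Mmp27) and TATAAA in 5 (Adamts1, Mmp3, Mmp10, Mmp13 and Mmp21). Mmp3, Mmp8, Mmp10, Mmp12, Mmp13 and Mmp27 lie together on chromosome 9, within 309 kb (GRCm38.p6, 7272514 to 7581885).

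Levels between genes were compared as TPM, which is corrected for transcript length. Mmp9, the gelatinase of osteoclasts and neutrophils, was the most abundant member, at 569 ± 46.8 TPM in WT Control (SD, n = 5). The neutrophil collagenase Mmp8 followed in the average over all 23 libraries (266 TPM, against 484 for Mmp9), then the bone and cartilage collagenase Mmp13 (218), the gelatinase Mmp2 (166), Timp2 (109), the membrane-type Mmp14 (103) and Timp1 (69.9). In WT Control, Mmp8 (248 ± 21.5, SD, n = 5), Mmp13 (290 ± 90.9, SD, n = 5) and Mmp2 (208 ± 59.1, SD, n = 5) did not differ beyond their spread, nor did Timp2 (136 ± 29.8, SD, n = 5) and Mmp14 (130 ± 34.1, SD, n = 5). Among ADAMTS genes the procollagen N-proteinase Adamts2 (43.7 ± 10.7 TPM, SD, n = 5) and the fibrillin-binding Adamts10 (31.5 ± 2.95, SD, n = 5) were highest in WT Control. Mmp9 alone made up 33.8% to 42.2% of summed Mmp TPM in WT Control mice.

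**Figure D1:**
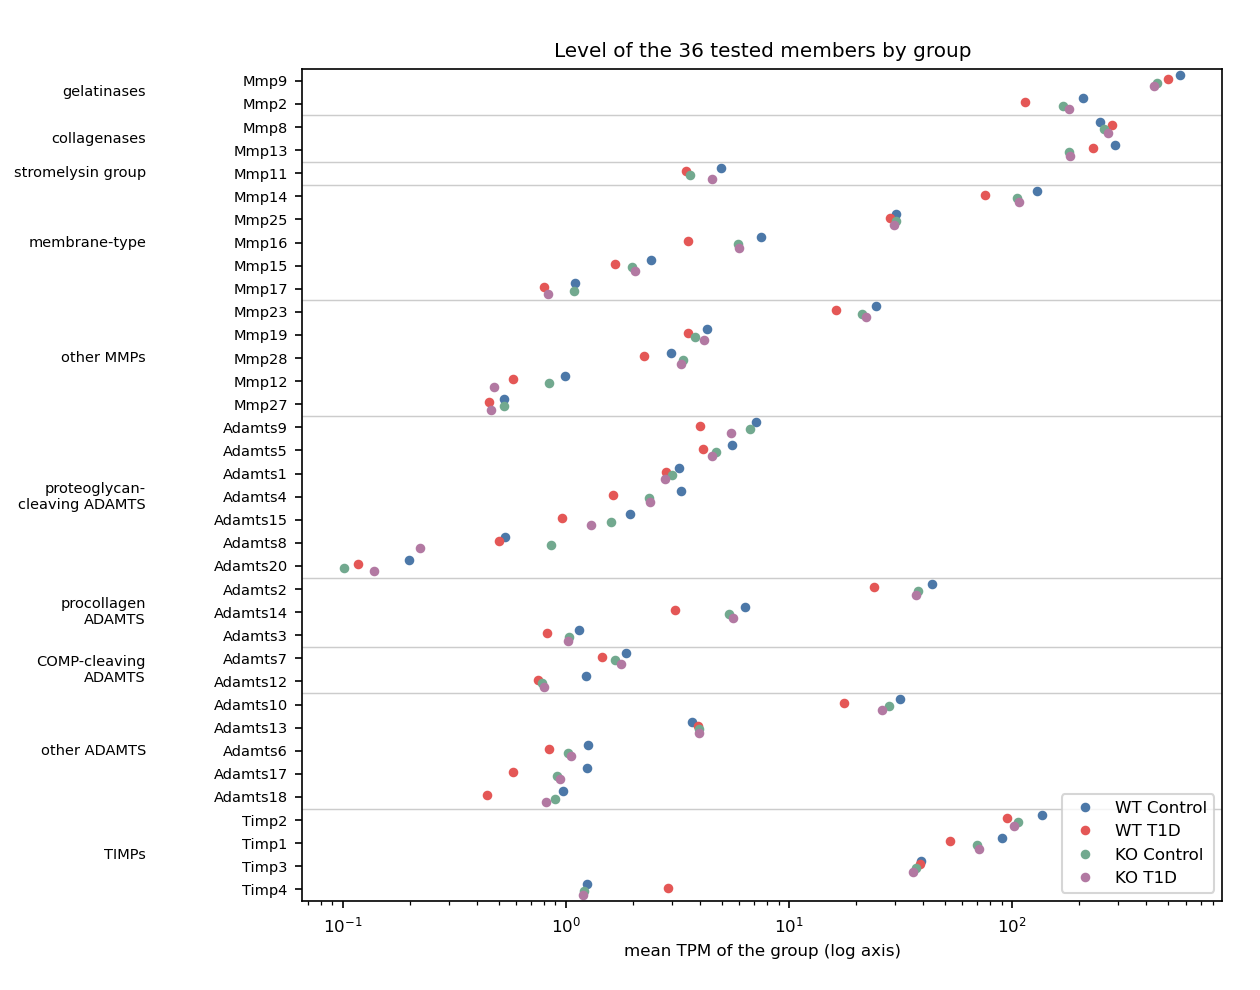
Mean TPM of each of the 36 tested members in WT Control, WT T1D, KO Control and KO T1D (points, log axis), ordered by role. Levels ran from Mmp9 at 569 TPM to Adamts20 at 0.198 TPM in WT Control, and the WT T1D point lay lowest of the groups for many ADAMTS genes on the TPM scale. In mean CPM this did not hold for all of them. Adamts5, for example, had 27.6 CPM in WT T1D and 26.3 CPM in both KO Control and KO T1D.

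In WT mice with T1D, the log2 fold change was below 0 for 3 of 3 procollagen-processing, 4 of 7 proteoglycan-cleaving and 4 of 5 membrane-type enzymes and above 0 for Timp4 and Mmp8, but 0 of 36 members passed the test. With edgeR's quasi-likelihood test and Benjamini-Hochberg adjustment, 2.33% of all genes were called for T1D in WT (threshold 0.05). Among members Adamts10 came closest, at an adjusted p of 0.0512. At an unadjusted p under 0.05, 14 of 36 members were counted (3 higher and 11 lower), where the share over all genes was 22.2%. The median log2 fold change over the 36 members was -0.25, against -0.01 over all tested genes, and 24 members lay below 0. The share of all genes below 0 is not given, so counts below 0 cannot be read as results about the members. Median log2 fold changes were -0.62 for procollagen-processing, -0.14 for proteoglycan-cleaving and -0.30 for membrane-type enzymes. Without A3905 and A3906 they were -0.28, -0.18 and -0.07.

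**Figure D2:**
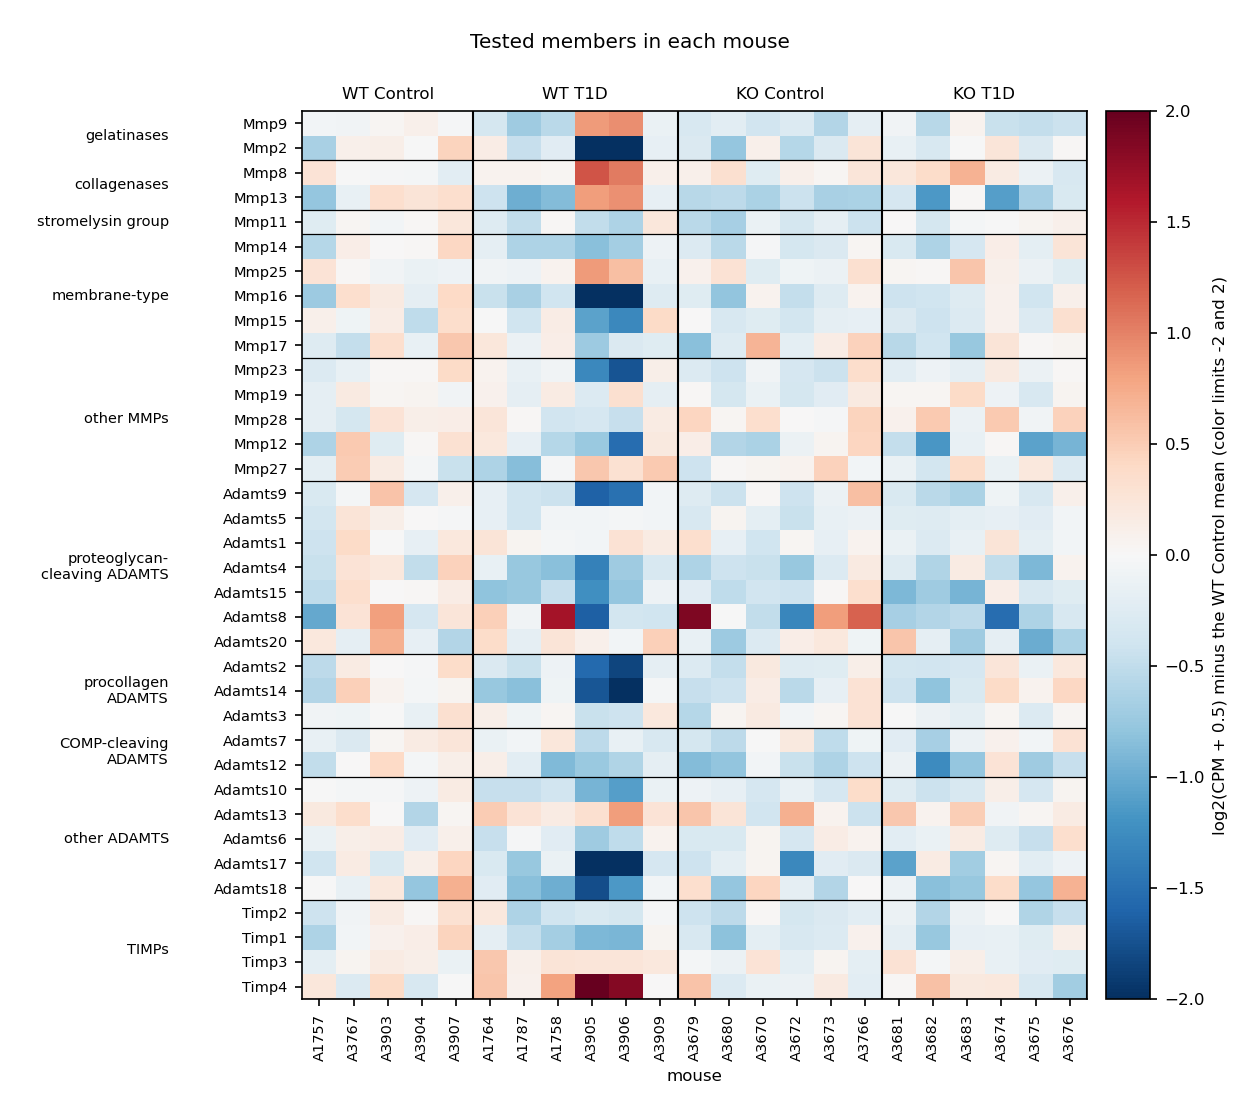
Each tested member (row, by role) in each mouse (column, by group), as log2(CPM + 0.5) minus the WT Control mean, with color limits at -2 and 2. Columns A3905 and A3906 in WT T1D differ most from WT Control, with Mmp9, Mmp8, Mmp13, Mmp25 and Timp4 high and Mmp2, Mmp16, Mmp23, Adamts2, Adamts14 and Adamts17 low.

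Gelatinases and collagenases cleave denatured and fibrillar collagen. Mmp9 measured 1154, 1144, 1234, 1285 and 1181 CPM in WT Control mice A1757, A3767, A3903, A3904 and A3907, the order kept below. In WT T1D its lowest, median and highest values were 728, 1014 and 2274 CPM. The WT T1D mice lay on both sides of WT Control: 4 were below every WT Control mouse, and A3905 (2172) and A3906 (2274) were above every mouse in the series. The fitted log2 fold change was 0.16 ± 0.23 (SE, adjusted p = 0.73) with all mice and -0.42 ± 0.12 (SE, adjusted p = 0.289) without A3905 and A3906, so its sign turned on these mice. On log2(TPM + 1) with limma it was -0.28 with all mice.

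Mmp2 measured 262, 438, 444, 406 and 561 CPM in WT Control, and 70.3, 324 and 452 CPM (lowest, median, highest) in WT T1D. Only A3905 (83.3) and A3906 (70.3) were below the WT Control range, and the other WT T1D mice lay within it. The log2 fold change was -0.65 ± 0.34 (SE, adjusted p = 0.268), and -0.21 ± 0.20 (SE, adjusted p = 0.751) without A3905 and A3906. The gelatinases therefore diverged in the same animals.

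Mmp8 measured 486, 397, 395, 392 and 348 CPM in WT Control. In WT T1D its values were 411, 425 and 957 CPM (lowest, median, highest). A3905 (957) and A3906 (825) stood above all other mice, while the other WT T1D mice fell between 411 and 428, inside the WT Control range. The log2 fold change was 0.52 ± 0.21 (SE, adjusted p = 0.151) with all mice and 0.06 ± 0.15 (SE, adjusted p = 0.933) without A3905 and A3906. Mmp13 measured 285, 441, 617, 582 and 618 CPM in WT Control and 249, 400.0 and 920 CPM (lowest, median, highest) in WT T1D. A3905 (875) and A3906 (920) were again the highest of 23 mice, and of the other 4 WT T1D mice (249 to 434), 2 lay below every WT Control mouse. Its log2 fold change was 0.03 ± 0.29 (SE, adjusted p = 0.968), and -0.63 ± 0.23 (SE, adjusted p = 0.334) without A3905 and A3906, or -0.40 with all mice on log2(TPM + 1) with limma. The A17 control A1757 (285 CPM) lay among the A17 diabetic mice A1764 (366), A1787 (249) and A1758 (269).

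**Figure D3:**
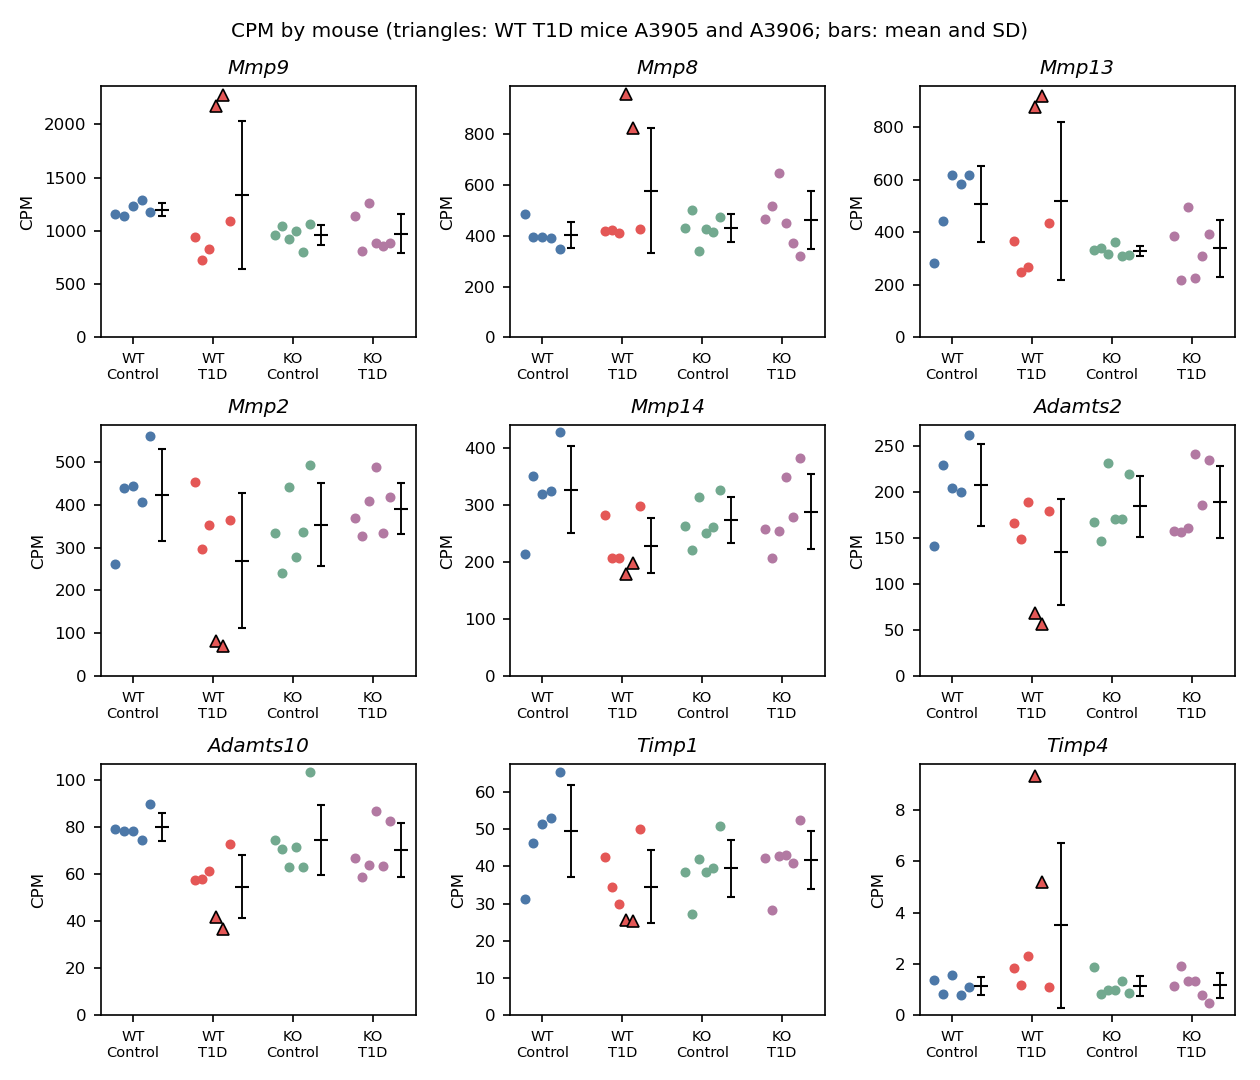
CPM of Mmp9, Mmp8, Mmp13, Mmp2, Mmp14, Adamts2, Adamts10, Timp1 and Timp4 in each mouse (points) of the 4 groups, with mean and SD beside them. Triangles mark WT T1D mice A3905 and A3906, which held both the highest values of Mmp9, Mmp8, Mmp13 and Timp4 and the lowest values of Mmp2, Mmp14, Adamts2, Adamts10 and Timp1.

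Membrane-type MMPs act at the cell surface. Mmp14, a collagenase and activator of proMMP2, measured 215, 351, 320, 325 and 428 CPM in WT Control and 180, 208 and 298 CPM (lowest, median, highest) in WT T1D. Values of 4 diabetic mice were under the WT Control minimum, but the group ranges overlapped because of A1757 (215). The log2 fold change was -0.52 ± 0.17 (SE, adjusted p = 0.0829), and -0.40 ± 0.18 (SE, adjusted p = 0.429) without A3905 and A3906. Mmp25, a membrane-anchored enzyme of neutrophils, went the other way in the same mice. It measured 76.2, 64.1, 60.2, 57.3 and 58.6 CPM in WT Control, and A3905 (114) and A3906 (95.4) were above every other mouse while the other WT T1D mice measured 56.9 to 66.2. Its log2 fold change was 0.25 ± 0.17 (SE, adjusted p = 0.399), and -0.07 ± 0.13 (SE, adjusted p = 0.903) without A3905 and A3906. Mmp16, another membrane-type enzyme, is named after its values were seen. It measured 3.91 CPM in A3905 and 3.18 CPM in A3906, against 18.6 to 41.1 CPM in WT Control, and its log2 fold change was -0.97 ± 0.37 with all mice and -0.49 ± 0.20 without A3905 and A3906 (SE, adjusted p = 0.124 and 0.367).

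None of the other MMPs named by the rule passed the test. Mmp11, a stromelysin-type enzyme activated inside the cell by furin, measured 6.08, 7.51, 7.01, 7.38 and 8.60 CPM in WT Control and 4.57, 5.5 and 8.62 CPM (lowest, median, highest) in WT T1D, with overlapping ranges. Mmp23, a membrane protein shed during secretion, measured 19.9, 21.7, 24.6, 24.7 and 31.5 CPM in WT Control, and only A3905 (9.57) and A3906 (7.0) were below that range in WT T1D. Mmp19 had means of 9.51 ± 0.933 (SD, n = 5) and 9.52 ± 1.68 CPM (SD, n = 6) in WT Control and WT T1D. Mmp12, the macrophage elastase, was near the detection limit at 1.16 ± 0.501 (SD, n = 5) and 0.782 ± 0.515 CPM (SD, n = 6).

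Procollagen N-proteinases remove the amino-terminal propeptide of fibrillar collagens. All 3 had log2 fold changes below 0 in WT T1D with all mice included, with a median of -0.62. Without A3905 and A3906 the median was -0.28, and Adamts3 was above 0 (0.07 ± 0.17, SE, adjusted p = 0.928). Adamts2 measured 142, 229, 205, 200.3 and 263 CPM in WT Control and 56.6, 158 and 190 CPM (lowest, median, highest) in WT T1D, where only A3905 (69.1) and A3906 (56.6) left the WT Control range. Its log2 fold change was -0.62 ± 0.24 (SE, adjusted p = 0.138), and -0.28 ± 0.17 (SE, adjusted p = 0.552) without those mice. Adamts14 measured 14.1, 29.9, 22.4, 20.8 and 22.3 CPM in WT Control and 4.63, 12.1 and 20.6 CPM (lowest, median, highest) in WT T1D. For Adamts14, 4 of 6 diabetic mice lay under the WT Control minimum, and the log2 fold change was -0.80 ± 0.31 (SE, adjusted p = 0.128), or -0.44 ± 0.25 (SE, adjusted p = 0.541) without A3905 and A3906.

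Adamts10, which binds fibrillin microfibrils, was the only member whose WT Control and WT T1D values did not overlap. It measured 79.1, 78.1, 78.4, 74.5 and 89.8 CPM in WT Control and 36.8, 57.7 and 72.8 CPM (lowest, median, highest) in WT T1D, so all 6 WT T1D mice were below all 5 WT Control mice. Over all genes, 0.877% lay lower in WT T1D without overlap and 1.32% higher, and 0 members lay higher without overlap. The log2 fold change of Adamts10 was -0.55 ± 0.15 (SE, adjusted p = 0.0512), and -0.36 ± 0.13 (SE, adjusted p = 0.34) without A3905 and A3906. Adamts13, the von Willebrand factor protease, had a log2 fold change of 0.40 ± 0.21 (SE, adjusted p = 0.263), with 2 WT T1D mice above every WT Control mouse.

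Proteoglycan-cleaving ADAMTS enzymes degrade aggrecan and versican, and 4 of the 7 had log2 fold changes below 0. Adamts15 measured 4.87, 9.16, 7.23, 7.33 and 7.99 CPM in WT Control and 2.77, 4.01 and 6.67 CPM (lowest, median, highest) in WT T1D. Adamts4 measured 5.53, 9.43, 8.93, 5.30 and 10.7 CPM in WT Control and 2.72, 4.43 and 6.87 CPM in WT T1D. In each, 4 of 6 diabetic mice lay under the WT Control minimum, with log2 fold changes of -0.73 ± 0.23 for Adamts15 (SE, adjusted p = 0.0765) and -0.74 ± 0.25 for Adamts4 (SE, adjusted p = 0.0854). Without A3905 and A3906 these were -0.58 ± 0.25 (SE, adjusted p = 0.392) and -0.58 ± 0.26 (SE, adjusted p = 0.407). Adamts5, the main aggrecanase of mouse cartilage, differed less, with a log2 fold change of -0.14 ± 0.10 (SE, adjusted p = 0.419). Adamts9, a versicanase, measured 28.6, 34.2, 52.5, 28.0 and 37.9 CPM in WT Control and 11.1, 26.4 and 33.8 CPM (lowest, median, highest) in WT T1D, with a log2 fold change of -0.62 ± 0.25 (SE, adjusted p = 0.15), or -0.30 ± 0.20 (SE, adjusted p = 0.615) without A3905 and A3906. Adamts7 and Adamts12, which cleave cartilage oligomeric matrix protein, had log2 fold changes of -0.17 ± 0.18 and -0.45 ± 0.26 (SE), or -0.08 ± 0.20 and -0.30 ± 0.29 (SE) without A3905 and A3906.

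The inhibitors did not move together. Timp1, a broad inhibitor of soluble MMPs, measured 31.3, 46.2, 51.3, 53.1 and 65.5 CPM in WT Control and 25.3, 32.2 and 49.97 CPM (lowest, median, highest) in WT T1D, and 3 diabetic mice lay under the WT Control minimum. Its log2 fold change was -0.52 ± 0.19 (SE, adjusted p = 0.115), and -0.34 ± 0.19 (SE, adjusted p = 0.534) without A3905 and A3906. Timp3, which is bound to matrix and also inhibits ADAMTS enzymes, measured 107, 126, 136, 132 and 111 CPM in WT Control and 130.3, 144 and 178 CPM (lowest, median, highest) in WT T1D. For Timp3, 5 of 6 WT T1D mice were above every WT Control mouse, and A3905 and A3906 (144 each) lay among the others, with a log2 fold change of 0.26 ± 0.11 (SE, adjusted p = 0.144), or 0.28 ± 0.12 (SE, adjusted p = 0.388) without them and -0.03 on log2(TPM + 1) with limma. Timp4 measured 1.37, 0.823, 1.58, 0.789 and 1.10 CPM in WT Control and 1.11, 2.08 and 9.34 CPM (lowest, median, highest) in WT T1D. A3905 (9.34) and A3906 (5.20) were the highest of 23 mice for Timp4, and the log2 fold change of 1.62 ± 0.47 (SE, adjusted p = 0.0589) was 0.51 ± 0.36 (SE, adjusted p = 0.636) without them. Timp2, which also takes part in activation of proMMP2 by MMP14, had a log2 fold change of -0.24 ± 0.15 (SE, adjusted p = 0.343).

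**Figure D4:**
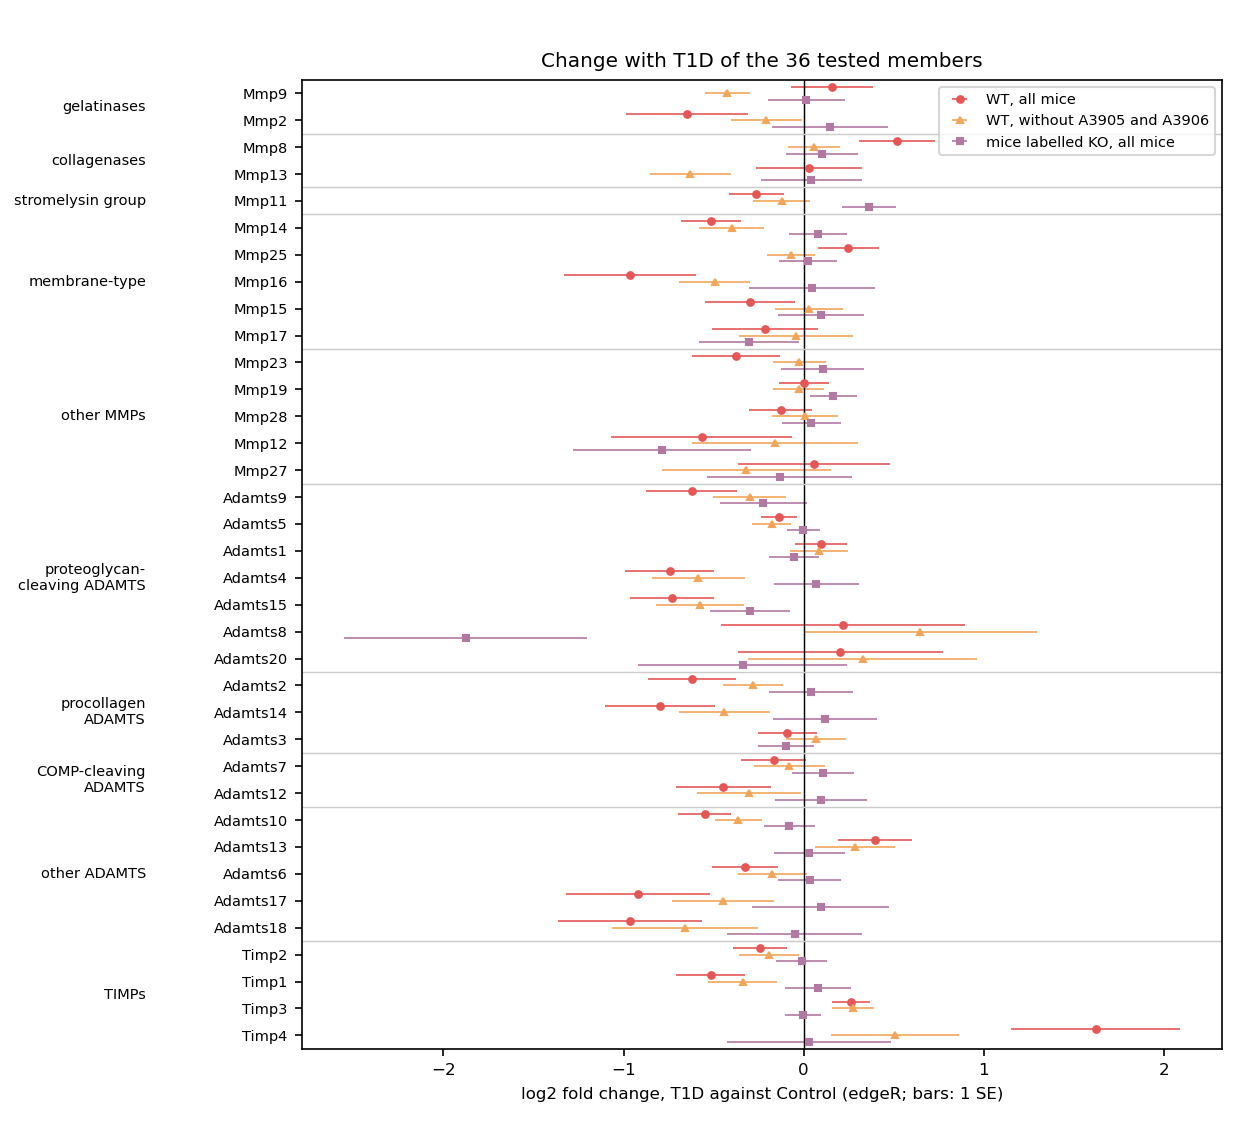
Log2 fold change with T1D (edgeR, bars 1 SE) of each tested member in WT with all mice (circles), in WT without A3905 and A3906 (triangles) and in mice labelled KO (squares). The WT changes of Mmp9 (0.16), Mmp13 (0.03), Mmp8 (0.52) and Timp4 (1.62) became -0.42, -0.63, 0.06 and 0.51 without these mice.

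The number of members called in WT depended on the mice and the tool. Without A3905 and A3906, 0% of all genes and 0 members were called, and 8 members had an unadjusted p under 0.05 (11% of all genes). DESeq2 called 5 members (6.98% of all genes): Adamts4, Adamts10, Adamts15, Mmp14 and Timp4. Limma on log2(TPM + 1) called 17 members (35.9% of all genes), on a scale where the median gene was itself shifted by -0.24, against -0.35 for the members. With mouse ID series as a covariate 2 were called (5.58% of all genes), Adamts10 and Timp4. Within the A36 to A39 series, where WT T1D consisted of A3905, A3906 and A3909 only, 13 were called (15.4% of all genes). The A17 series, with 1 WT Control mouse, was too small for its own test. Leaving out A3909 gave 7 calls, A1757 or A1764 gave 4 each, A1758 gave 2 and the KO Control mouse A3766 gave 1, and leaving out any other mouse gave 0. Shares over all genes are not given for these single-mouse fits. The count at an unadjusted p under 0.05 was 9 without WT Control mouse A3907.

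A3905 and A3906 were the 2 lowest of all 23 mice for 13 of 36 members (36.1%, against 15.1% of all tested genes). These were Mmp2, Mmp14, Mmp15, Mmp16, Mmp23, Adamts2, Adamts6, Adamts9, Adamts10, Adamts14, Adamts17, Adamts18 and Timp1. For 5 members (13.9%, against 11.5% of all tested genes) they were the 2 highest: Mmp8, Mmp9, Mmp13, Mmp25 and Timp4. Markers of several cell types moved in the same mice. A3905 and A3906 were the 2 lowest for 12 of 12 osteoblast, 4 of 11 growth plate cartilage and 5 of 9 endothelial markers, and the 2 highest for 7 of 10 osteoclast, 7 of 15 neutrophil and 13 of 16 erythroid markers. Other lists were mixed: 4 lowest and 2 highest of 9 macrophage, 1 and 2 of 5 osteocyte, and 1 and 1 of 7 marrow stromal markers. For skeletal muscle it was 0 and 0 of 10. Summed osteocyte markers were 428 and 453 CPM, within the WT Control range of 240 to 460 CPM. Summed osteoclast markers were 4010 and 4357 CPM in A3905 and A3906, against 1799 to 2629 CPM in all other mice, and summed neutrophil markers were 51841 and 46246 CPM, against 26529 to 44397 CPM. Summed growth plate cartilage markers were 253 and 276 CPM, against 1589 to 4086 CPM in all other mice. Summed erythroid markers ranged from 99481 to 145220 CPM in WT Control and from 128300 to 240490 CPM in WT T1D, with the highest values in A3905 (240490) and A3906 (235770). With the erythroid score as a covariate 1 member had an unadjusted p under 0.05 in WT. The share over all genes is not given for that fit, so its count cannot be read as a result about the members. No marker of these lists was at 0 in all libraries. The part of these cell types in the member results was not tested, and in bulk tissue fewer cells of a type and less RNA per cell cannot be told apart.

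In mice labelled KO, no member passed the test between T1D and Control (0 of 36 called, with 0% of all genes called). At an unadjusted p under 0.05, 2 members were counted, 1 higher and 1 lower, where the share over all genes was 3.15%. Leaving out single mice moved this count to between 1 and 4: it was 1 without A3679, A3680 or A3676 and 4 without A3674. Shares over all genes are not given for these single-mouse fits. The median log2 fold change of the members was 0.03, against 0.00 over all genes. No member's KO Control and KO T1D values were without overlap (0.167% of all genes lower and 0.0905% higher). Mmp2 measured 241, 335 and 492 CPM (lowest, median, highest) in KO Control and 328, 389 and 487 CPM in KO T1D. For Mmp14 these values were 221, 263 and 327 CPM and 208, 270 and 383 CPM. For Adamts10 they were 63.0, 71.2 and 103 CPM and 58.9, 65.4 and 86.6 CPM. The groups overlapped in all of these genes.

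The members with the lowest p in mice labelled KO were sparse or small in change. Adamts8, a low proteoglycan-cleaving ADAMTS, measured 0.271, 2.15 and 6.46 CPM (lowest, median, highest) in KO Control and 0.162, 0.751 and 1.03 CPM in KO T1D, with a log2 fold change of -1.88 ± 0.67 (SE, adjusted p = 1.00). Mmp11 measured 4.41, 5.44 and 6.6 CPM in KO Control and 5.62, 7.29 and 7.85 CPM in KO T1D, where 5 of 6 mice lay above every KO Control mouse, with a log2 fold change of 0.36 ± 0.15 (SE, adjusted p = 1.00). Mmp12 had a log2 fold change of -0.79 ± 0.49 (SE, adjusted p = 1.00).

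Whether T1D acted differently in the genotypes was tested as an interaction, which is the log2 change in mice labelled KO minus that in WT. It called 0 members, as for all genes (0%), and 8 members had an unadjusted p under 0.05 (10.2% of all genes). The interaction was 0.62 ± 0.21 for Mmp11, 0.60 ± 0.23 for Mmp14 and -1.59 ± 0.65 for Timp4 (SE, adjusted p = 0.479 each). For Adamts10 it was 0.47 ± 0.21, for Timp1 0.59 ± 0.26 and for Adamts4 0.82 ± 0.34 (SE, adjusted p = 0.479 each). Also among the 8, Adamts14 was at 0.91 and the sparse Adamts8 at -2.10. The median interaction over the members was 0.25, against 0.01 over all genes. Without A3905 and A3906 the median was 0.18, and the interaction was 0.48 ± 0.21 for Mmp11, 0.48 ± 0.24 for Mmp14, 0.28 ± 0.17 for Adamts10, 0.41 ± 0.25 for Timp1 and 0.65 ± 0.34 for Adamts4 (SE, adjusted p = 0.926 each). For Timp4 it was -0.48 ± 0.47, for Adamts14 0.55 ± 0.33 and for Adamts8 -2.53 ± 0.88 (SE, adjusted p = 0.931, 0.926 and 0.926). The 5 members then under an unadjusted p of 0.05 were Mmp9, Mmp11, Mmp13, Mmp16 and Adamts8, of which Mmp11 and Adamts8 were also among the 8. The count of 8 was 3 without A3907, 4 without A3905, A3674 or A3676, and 5 without A3906 or A3673. Averaged over genotypes, T1D called 0 members (0.111% of all genes) and gave 5 at an unadjusted p under 0.05 (16.4%). The lowest adjusted p was 0.135, for Adamts15 (log2 fold change -0.51 ± 0.16, SE). This count of 5 was 3 without A3903 or A3905, and 10, 9, 12 and 8 without A1757, A1764, A3909 and A3676. For the interaction and the average, shares over all genes are not given for fits with mice left out. Their counts cannot be read as results about the members.

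Between genotypes under control conditions, Mmp13 and Mmp9 had lower means in mice labelled KO, and no difference passed the test. In Control mice 0 members were called (0.0278% of all genes) and 4 had an unadjusted p under 0.05 (4.8% of all genes), all lower in mice labelled KO: Mmp11, Mmp13, Adamts5 and Adamts12. Mmp13 measured 310, 323 and 364 CPM (lowest, median, highest) in KO Control, with a log2 fold change of -0.63 ± 0.29 (SE, adjusted p = 0.999). The ranges overlapped only because of A1757 (285 CPM), the WT Control mouse of the A17 series. The other WT Control mice, in the same ID series as every mouse labelled KO, measured 441 to 618 CPM. Mmp9 measured 799, 978 and 1063 CPM in KO Control, below all 5 WT Control mice, of which the lowest was 1144 CPM. Mmp9 was the only member without overlap there (0.292% of all genes lower and 0.32% higher), with a log2 fold change of -0.32 ± 0.23 (SE, adjusted p = 0.999). Adamts12 and Mmp11 had log2 fold changes of -0.60 ± 0.26 and -0.40 ± 0.15 (SE, adjusted p = 0.999 each). A3905 and A3906 are in neither Control group, but the 4 groups share 1 estimate of spread in the fit. Without these mice the SE was smaller: -0.32 ± 0.11 for Mmp9 and -0.63 ± 0.20 for Mmp13 (SE, adjusted p = 0.726 and 0.682). The count of 4 was 8 without A1757, 2 without A3680 and 1 without A3903, A3907, A3679 or A3673. Shares over all genes are not given for these single-mouse fits.

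In T1D mice 0 members were called between genotypes (0.0905% of all genes), and 9 had an unadjusted p under 0.05 (17.1% of all genes), 5 higher and 4 lower in mice labelled KO. This comparison shares the WT T1D libraries with that of T1D in WT. No member was without overlap (0.411% of all genes lower and 0.453% higher). Timp4 measured 0.491, 1.23 and 1.91 CPM (lowest, median, highest) in KO T1D, with a log2 fold change of -1.58 ± 0.44 (SE, adjusted p = 0.121). Timp3 measured 103, 114 and 149 CPM in KO T1D, with a log2 fold change of -0.30 ± 0.10 (SE, adjusted p = 0.181), and Adamts10 had 0.37 ± 0.14 (SE, adjusted p = 0.215). Mmp9 and Mmp13 had log2 fold changes of -0.46 ± 0.22 and -0.61 ± 0.28 (SE, adjusted p = 0.284 and 0.273), but 0.12 ± 0.12 and 0.04 ± 0.22 without A3905 and A3906 (SE, adjusted p = 0.871 and 0.981). Leaving out both mice took Timp4 to -0.47 ± 0.34 and Adamts10 to 0.17 ± 0.13 (SE, adjusted p = 0.822 each), while Timp3 stayed at -0.31 ± 0.11 (SE, adjusted p = 0.644). The count of 9 became 2 without both, 3 without A3905, A3906, A3674 or A3676, and 14 without A3909. Shares over all genes are not given for these fits with mice left out. Within the A36 to A39 series 6 members were called (10.7% of all genes): Mmp2, Mmp8, Mmp9, Mmp13, Adamts2 and Timp4. With ID series as a covariate 3 were called (4.62% of all genes), Mmp9, Mmp13 and Timp4.

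Summed over each family per mouse, median Mmp TPM was 1554 for WT Control and 1261 for WT T1D, against 1245 and 1204 for the Control and T1D mice labelled KO. In the same order, medians were 269, 164, 208 and 221 for Timp TPM and 125, 74.8, 95.8 and 89.3 for Adamts TPM. These sums move with the TPM scale, whereas their ratio does not. The ratio of Mmp to Timp TPM ran from 5.18 to 6.76 in WT Control. Mice labelled KO gave ratios of 4.76 to 7.12 as Control and 5.22 to 6.83 with T1D. In WT T1D it was 11.0 in A3905 and 11.4 in A3906, and between 4.56 and 5.55 in the other 4 mice. With A3905 and A3906 set aside, the ranges of the 4 groups overlapped.

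**Figure D5:**
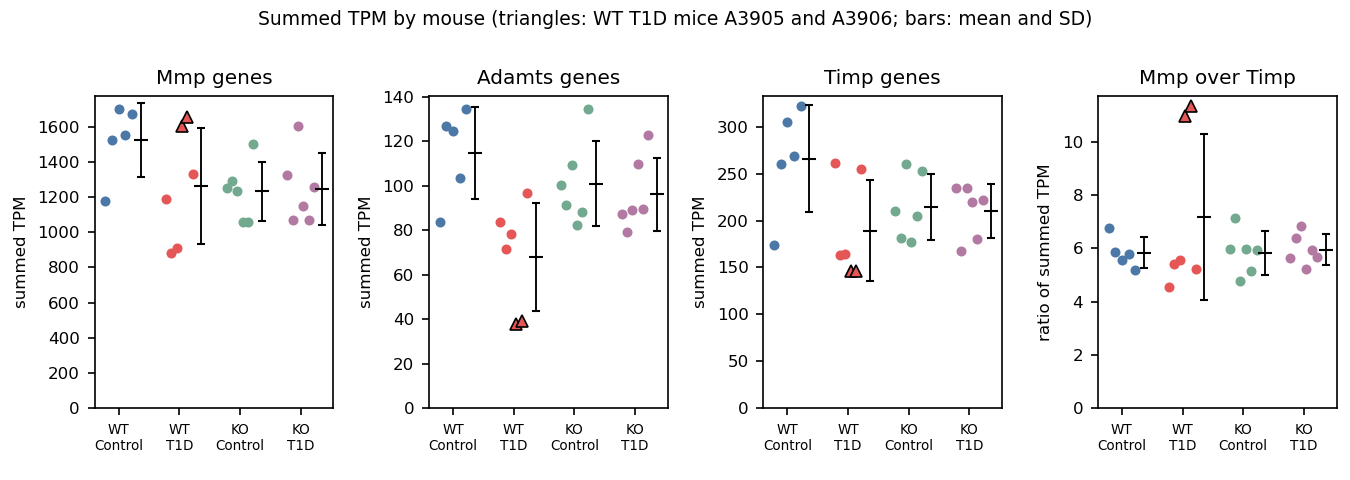
Summed TPM of the Mmp, Adamts and Timp genes and the ratio of Mmp to Timp TPM in each mouse (points), with mean and SD of each group. Triangles mark A3905 and A3906, whose ratios of 11.0 and 11.4 lie above those of all other mice (4.56 to 7.12).

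Related genes were read from lists chosen alongside the members. Of 12 matrix substrates, such as collagens and proteoglycans, 0 were called in WT T1D and 10 had log2 fold changes below 0, with a median of -0.77, or -0.34 without A3905 and A3906. The smallest p belonged to Col2a1, cartilage collagen (log2 fold change -1.09 ± 0.35, SE, adjusted p = 0.0767). Of 13 other inhibitors, activators and receptors 0 were called and 11 were below 0 (median -0.30, or -0.06 without A3905 and A3906), although the smallest p belonged to Bsg, the MMP inducer basigin, at 0.31 ± 0.09 (SE, adjusted p = 0.0526). None of 7 ADAMTS-like, 7 plasminogen system or 4 tolloid-group genes was called, and 6, 4 and 0 of them had log2 fold changes above 0. Their smallest p values belonged to Adamtsl2 (-1.10 ± 0.39, SE, adjusted p = 0.106), the plasminogen activator Plau (-0.37 ± 0.12, SE, adjusted p = 0.0711) and the procollagen enhancer Pcolce2 (-1.06 ± 0.38, SE, adjusted p = 0.106). These single-gene fold changes include A3905 and A3906. Mean CPM of Col2a1 was 1114.5 in WT Control, 525 in WT T1D and 694 in WT T1D without these mice. In the same order, Bsg had 518, 642 and 622 CPM and Adamtsl2 5.95, 2.77 and 3.82 CPM. Plau had 13.2, 10.2 and 10.1 CPM, and Pcolce2 3.77, 1.80 and 2.05 CPM. In mice labelled KO, 0 genes of these lists were called.

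The tested members not described above had mean levels of 0.136 to 2.97 TPM over all libraries. They were Mmp15, Mmp17, Mmp27, Mmp28, Adamts1, Adamts3, Adamts6, Adamts17, Adamts18 and Adamts20. Adamts1, an early-response versicanase, had means of 10.4 ± 2.33 (SD, n = 5), 11.1 ± 1.20 (SD, n = 6), 10.04 ± 1.89 (SD, n = 6) and 9.66 ± 1.39 CPM (SD, n = 6) in WT Control, WT T1D, KO Control and KO T1D, which did not differ beyond their spread. Adamts17 and Adamts18, both named after their values were seen, had log2 fold changes of -0.92 ± 0.40 and -0.97 ± 0.40 in WT T1D (SE, adjusted p = 0.181 and 0.156), or -0.45 ± 0.28 and -0.66 ± 0.41 without A3905 and A3906 (SE, adjusted p = 0.59 and 0.572), and A3905 (0.453 CPM) and A3906 (0.694 CPM) were the lowest of all mice for Adamts17.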

How the data were processed

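Oligo dT-selected RNA was sequenced as paired-end reads on DNBSEQ, 1 library per mouse. Per the labels and methods, the authors used HISAT and Bowtie2 with GRCm38.p6, and deposited expected counts (RSEM estimates, deposited as whole numbers) and TPM values (normalised for length and library). Strand was not given in the sources used here, so reads of overlapping or antisense genes cannot be told apart. Genes reaching 10 counts in 5 or more of 23 libraries were tested with edgeR 4.0.16 (TMM scaling, quasi-likelihood F test, 1 fit over 4 groups, Benjamini-Hochberg over all tested genes, threshold 0.05) in R 4.3.3. CPM used TMM library sizes, and each SE is the fold change over the root of its F. Alternatives were DESeq2 1.42.0, limma 3.58.1 on log2(TPM + 1) and log2(TPM + 0.1), other size factors, no count filter, ID series or erythroid score as covariate, and leaving out mice. The fits were tested on simulated data. Values were printed for members called in any contrast, the 2 members of each role with the highest mean TPM, and those with the smallest unadjusted p (6 for T1D in WT, 3 in each of the other 5 contrasts), with exceptions stated, and the other tested members were given by range and group means. Members, gene lists and tests were chosen with earlier results of these data known. Promoter windows came from RefSeq.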

Additional observations from a re-analysis of the deposited data

Results flagged for a closer look

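In 7 of 100 combinations of a named member and a group, a single mouse lay far from the other mice of its group by Dixon's test, where chance gives about 1 in 20. In WT T1D these were Timp3 in A1764 (178 CPM, the highest), Adamts5 in A1787 (22.8 CPM, the lowest) and Adamts8 in A1758 (5.56 CPM, the highest). In KO Control, A3766 was highest for both Adamts10 (103 CPM) and Adamts9 (53.5 CPM). In KO T1D, Mmp25 was highest in A3683 (92.2 CPM) and Mmp11 lowest in A3682 (5.62 CPM). The test looks for a single mouse apart from its group, so 2 mice that are extreme together, such as A3905 and A3906, can be missed by it.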

How the results depend on the processing

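Called members in WT T1D numbered 0 with edgeR, 5 with DESeq2, 17 with limma on log2(TPM + 1) and 17 on log2(TPM + 0.1), 13 within the A36 to A39 mice and 2 with ID series as covariate, and leaving out single mice gave 0 to 7. Averaged over genotypes, limma called 2 with either pseudocount and the A36 to A39 mice 1. Between genotypes in T1D, DESeq2 called 1, limma 1 with either pseudocount, the A36 to A39 mice 6 and the ID series fit 3. At an unadjusted p under 0.05, the count for WT was 1 with the erythroid covariate, 8 without A3905 and A3906, and 9 to 17 without single mice. For mice labelled KO it was 1 with limma at either pseudocount and 1 to 4 without single mice. For the interaction it was 15 within A36 to A39 mice, 1 with the erythroid covariate, 5 without A3905 and A3906, and 3 to 11 without single mice. The median member log2 fold change in WT was -0.55 with limma on log2(TPM + 0.1), -0.46 within A36 to A39 mice and -0.0066 with the erythroid covariate, and the median interaction was 0.46 with limma on log2(TPM + 0.1). The cause of these shifts was not tested. Counts given without a share over all genes, here or above, cannot be read as results about the members. In WT T1D the sign of the log2 fold change differed in at least 1 setting for Mmp2, Mmp9, Mmp12, Mmp13, Mmp19, Mmp23, Mmp25, Timp3 and Adamts8, and in no setting run for the other members named by the rule. No paired analysis was possible because mice of different groups share no replicate number. Depth limits the values of members with few counts, such as Mmp12.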
